A study of Homo sapiens with 2 samples.

Results

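RUNX1 ChIPseq peaks were examined on the distal long arm of chromosome 8, taken as every peak on that chromosome whose summit lay above 100 Mb (GRCh38). By this rule there were 331 peaks of 13591 in the whole list, or 2.44% of the peaks in 1.46% of the annotated length. The stretch was chosen by a measured value, the level of the input library under the peaks, which is raised there. That level, the number of peaks and their heights come from the same pair of libraries, so they are given here as a description without a test.

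The cells were MCF10A, a non-tumorigenic human mammary epithelial line. In both libraries they lacked their own RUNX1, carried a lentiviral RUNX1 gene inducible by doxycycline and had received 1 µg/ml doxycycline for 24 hours. One library was the anti-RUNX1 immunoprecipitate, with 80338845 tags kept, and the other was input DNA, with 87410774 kept. RUNX1 was therefore read at an induced and not at its native level, knockout lines in this study were grown from single-cell colonies, and 1 library of each kind leaves no replicate. All intervals below are 95% intervals for counting error alone. Those of densities and their ratios take peaks as placed independently. The peaks were spread unevenly, so these intervals are too narrow for the variation of density along a chromosome.

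RUNX1 is a sequence-specific DNA-binding protein that pairs with CBFB, and it acts at promoters and at distant enhancers, so a peak can stand far from the gene it serves. Distal 8q carries MYC, the transcription factor that drives growth and division, inside a wide interval poor in protein-coding genes. The non-coding gene PVT1 lies beside it, and gains of this arm are among the common copy changes of breast tumors. ChIPseq locates binding and does not measure the expression of any of these genes.

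Peaks were dense on distal 8q although genes were not. The 331 peaks gave 7.35 peaks per Mb (exact Poisson interval 6.58 to 8.18), whereas the 344 peaks on the rest of chromosome 8 gave 3.44 per Mb (3.09 to 3.82), a ratio of 2.14 (1.83 to 2.49). Protein-coding genes had the same mean density on both sides, with 4.93 per Mb on distal 8q (222 genes) and 4.92 per Mb on the rest (492 genes). The peaks per protein-coding gene were 1.49 (1.33 to 1.66) and 0.699 (0.627 to 0.777). Over the whole list the figure was 0.678 peaks per gene. The other stretches with a raised input level had as many peaks per Mb but more genes. Chromosome 1 above 140 Mb had 7.62 peaks and 8.93 genes per Mb, and chromosome 5 above 120 Mb had 8.48 peaks and 7.84 genes per Mb. The ratios of peaks to genes there were 0.853 and 1.08, below that of distal 8q.

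Within distal 8q the peaks were spread unevenly. The bins of 10 Mb that start at 100, 110, 120 and 130 Mb held 66, 38, 97 and 51 peaks, or 6.6, 3.8, 9.7 and 5.1 per Mb. The last bin, from 140 Mb to the end of the annotation at 145.06 Mb, held 79 peaks, or 15.6 per Mb (12.4 to 19.5). That terminal bin was also the most gene-rich of the chromosome, with 20.8 protein-coding genes per Mb, so its peaks per gene were only 0.752. The bin from 120 to 130 Mb, which contains MYC, had 2.77 peaks per gene, the highest value of the 15 bins of chromosome 8. Of the first 45 windows of 1 Mb, 6 held no peak and 9 held 14 or more. The longest interval without a summit measured 5.08 Mb, from 109899455 to 114981773, and spans CSMD3, the longest protein-coding gene of the region (1214 kb), and KCNV1, a potassium channel subunit.

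**Figure D1:**
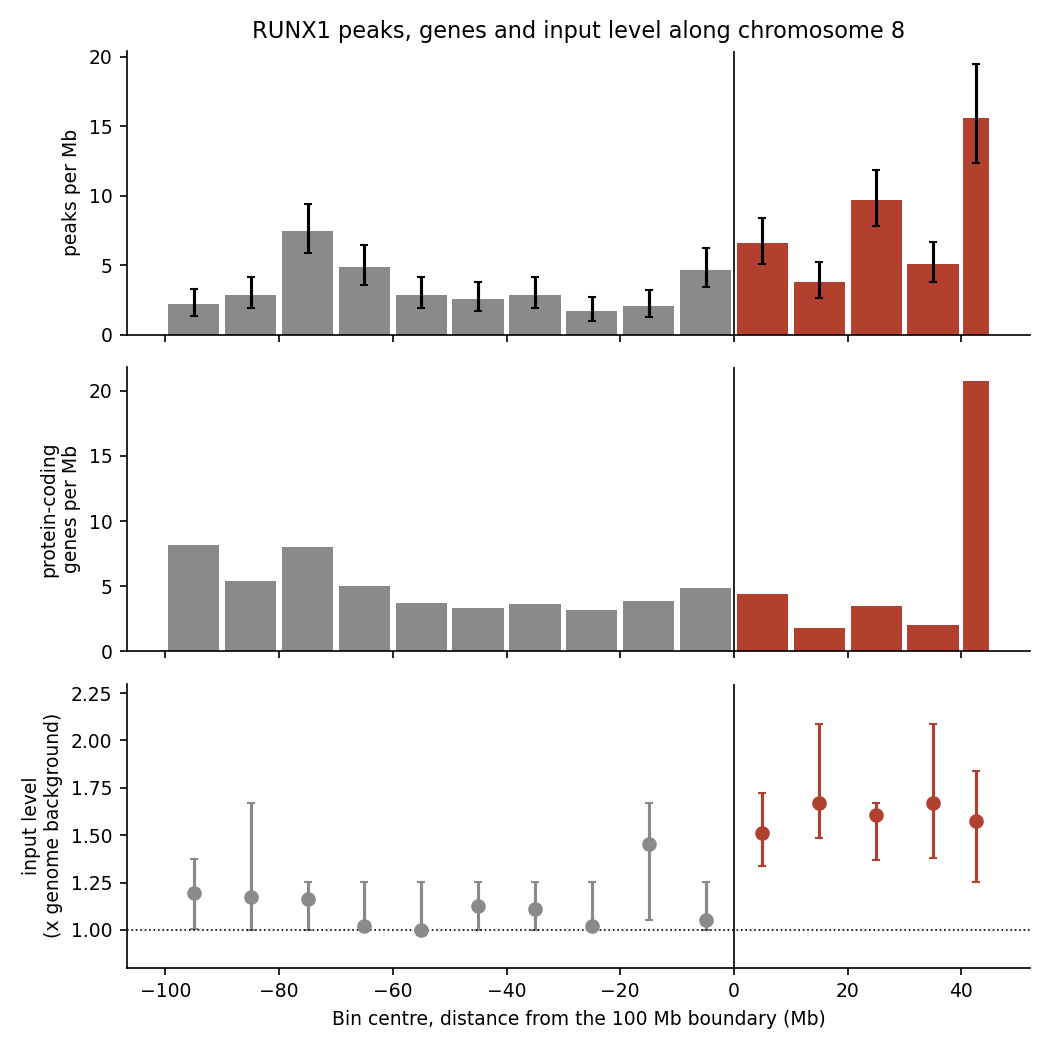
Peaks per Mb with exact 95% Poisson intervals (top), protein-coding genes per Mb (middle) and median input level with quartiles in multiples of the genome background (bottom) in 10 Mb bins of chromosome 8, by distance of the bin centre from the 100 Mb boundary. Red bins are distal 8q and grey bins the rest; the red bins sit at input levels of 1.51 to 1.67, and the last, shorter bin is highest in peaks and in genes.

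The input level is the local background that the peak caller used, expressed relative to a genome-wide background of 2.2 tags. It served to choose the stretch, and its median was 1.61 over the members (quartiles 1.35 and 1.81) and 1.08 over the rest of chromosome 8. Only 1 member sat at the genome background, against 130 peaks, or 37.8%, on the rest of the chromosome. On chromosome 1 above 140 Mb and chromosome 5 above 120 Mb the median levels were 1.67 and 1.56, with 2 peaks at the genome background in each. The last 5 peaks below 100 Mb, the final pair of them in VPS13B, had input levels of 1.17, 1, 1.54, 1.61 and 1.38 and pileups of 20, 23, 33, 53 and 19 tags. The first 5 peaks above it, near RNF19A and ANKRD46, had input levels of 2.50, 1.58, 2.50, 1.41 and 1.41 and pileups of 20, 23, 36, 23 and 20 tags. The local background under these peaks was only 3.09 to 5.51 tags, and no interval was computed for the input level of a single peak. Of these 5 peaks below the boundary 3 had levels above 1.2, and over the rest of chromosome 8 43.0% of the peaks had 1.2 or more. The median level from 90 to 100 Mb was 1.05 (quartiles 1 and 1.25). One bin farther off resembled distal 8q, since the 21 peaks from 80 to 90 Mb had a median input level of 1.45 (quartiles 1.05 and 1.67), a median pileup of 22 tags and a median fold enrichment of 4.18. Their density was 2.1 per Mb. Whether extra copies of the arm account for the raised level was not tested.

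Peaks of distal 8q were taller than those on the rest of chromosome 8, but their median fold enrichment was not higher. Pileup, which counts the ChIP tags covering a summit after extension, had a median of 22 (interval 21 to 23, quartiles 18 and 28) on distal 8q and 18 (17 to 19, quartiles 15 and 22) on the rest of chromosome 8. The lowest and highest values on distal 8q were 12 and 65 tags. A pileup of 30 or more was reached by 66 members, or 19.9% (Wilson interval 16.0 to 24.6%), and by 32 peaks, or 9.30% (6.67 to 12.8%), on the rest of the chromosome. On chromosome 1 above 140 Mb and chromosome 5 above 120 Mb the median pileup was 21 tags in each. The shares with 30 or more there were 18.9% and 16.3%, so taller peaks were not particular to distal 8q. Fold enrichment divides the pileup by the local background, and its median was 4.92 (4.79 to 5.29) on distal 8q and 5.24 (5.00 to 5.32) on the rest, with overlapping intervals. Fold enrichments of at least 10 were seen in 15 members, or 4.53% (2.77 to 7.34%), beside 3.82% of all peaks, which lies within that interval. Median width was 166 bp (150 to 179) against 162.5 bp (146 to 172). The peaks thus differed in tag height together with the input level, and the part of the input level in their height and number was not tested.

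**Figure D2:**
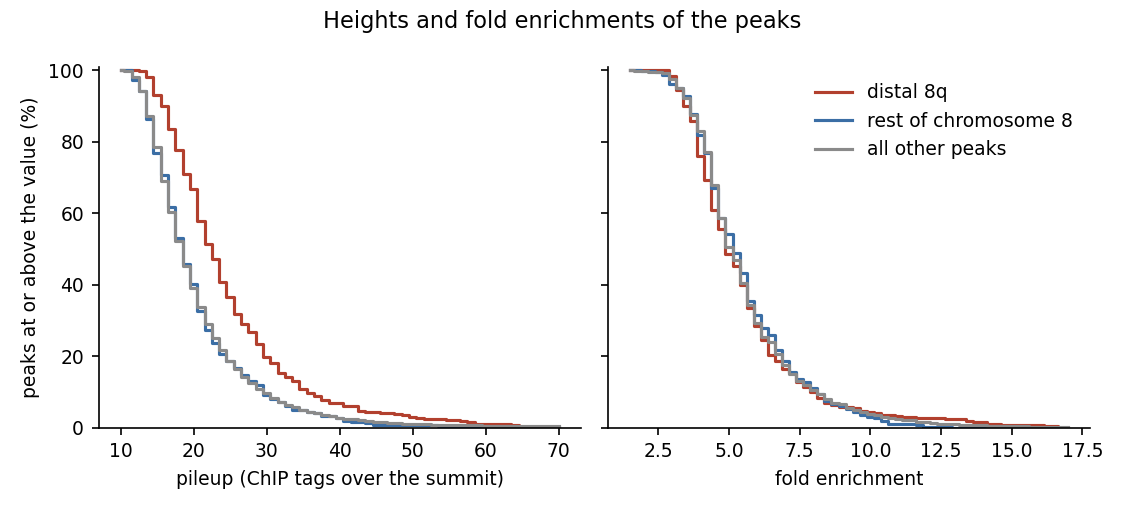
Share of peaks at or above each pileup (left) and each fold enrichment (right) for the 331 peaks of distal 8q, the 344 on the rest of chromosome 8 and the 13260 peaks outside distal 8q. The distal 8q curve is shifted to taller pileups (median 22 against 18), while the fold enrichment curves lie close together (medians 4.92 and 5.24 on chromosome 8).

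A higher density on distal 8q was also found when only stronger peaks were counted, with limits that, except for the first, were chosen after the data were seen. With fold enrichment of at least 5, distal 8q held 161 peaks and the rest of the chromosome 186, a density ratio of 1.92 (1.55 to 2.39). With fold enrichment of at least 10, 15 and 10 peaks gave a ratio of 3.33 (1.40 to 8.29). For peaks with a −log10 q of at least 20, that is, with the strongest support against the background, 26 and 16 peaks gave a ratio of 3.61 (1.86 to 7.20). For a pileup of at least 30 the ratio was 4.58 (2.96 to 7.22). The ratios describe these libraries only. Pileup moves with the input level that chose the stretch, and −log10 q rises with the number of tags, so these ratios are not separate support. Peaks with a −log10 q of at least 20 numbered 0.577 per Mb on distal 8q. The figures were 0.505 on chromosome 1 above 140 Mb and 0.553 on chromosome 5 above 120 Mb. With fold enrichment of at least 5 the densities in the same order were 3.57, 3.28 and 3.51 per Mb.

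In the 3 Mb that hold MYC and end at 130 Mb there were 32 peaks, 9.67% of the members, at 10.7 per Mb (7.30 to 15.1), among 4 protein-coding genes. Those genes were MYC, POU5F1B, GSDMC and CYRIB. The mean of all distal 8q, 7.35 per Mb, which includes these 32 peaks, lay inside that interval. Whether the span differs from the rest of the arm was not tested. By windows of 1 Mb the span held 10, 13 and 9 peaks, while the window from 102 Mb held 18 and that from 143 Mb held 21. MYC itself, at 127735434 to 127742951, had no peak in it or within 50 kb. The nearest summit lay 66.4 kb away on its lower-coordinate side, the nearest on the other side 176 kb away, and the span between these summits was 249 kb. Peaks near MYC were thus found only at a distance, on both sides of the gene. Input levels of the 32 peaks ran from 1.29 to 2.50, with a median of 1.60, close to that of all members.

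On the lower-coordinate side of MYC 7 peaks were found. The pileups in order were 17, 34, 14, 21, 19, 17 and 23 tags. The tallest, at 127391248 to 127391514, had a 7.48-fold enrichment and lay in the overlapping non-coding genes CASC8 and CASC21. A weak peak of 14 tags (7.65 to 23.5) lay in CCAT2, a short non-coding gene within CASC8, and the last pair lay at the non-coding gene LOC105375754. CASC11, which adjoins MYC, and PCAT1, PRNCR1, CASC19, CCAT1 and POU5F1B had no peak in them or within 5 kb.

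PVT1 had 5 peaks, all inside the gene, with pileups of 22, 25, 18, 28 and 23 tags. The highest of them, at 128016157 to 128016393, had a 6.20-fold enrichment and an interval of 18.6 to 40.5 tags, which covers the other 4 values except the lowest. The peak of 25 tags also lay within 5 kb of LINC02912 (older symbol TMEM75). Past PVT1, 12 peaks followed between 128175631 and 129189114 with pileups of 21, 30, 19, 24, 56, 14, 20, 29, 15, 33, 20 and 22 tags. One stood out among them. At 128391043 to 128391376 the pileup was 56 tags (42.3 to 72.7), the enrichment 14.1-fold and the −log10 q 44.6, and it was the fifth strongest member. It lay 656 kb from the lower-coordinate end of MYC and outside annotated genes, 14.1 kb from the non-coding gene LINC00824.

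Farther along, CCDC26, a long non-coding gene, had a single peak of 19 tags. GSDMC, a gasdermin whose relatives form membrane pores, had 3 peaks of 19, 19 and 20 tags with low enrichments of 4.28, 3.57 and 3.22. CYRIB, which binds Rac and restrains actin branching, had 4 peaks of 24, 64, 25 and 26 tags. The peak of 64 tags (49.3 to 81.7), at 129955718 to 129956116 inside the gene, had a 16.6-fold enrichment and a −log10 q of 55.8, the strongest of all members. Its lower limit lay above the upper limit of each of the other 3 CYRIB peaks. The tallest peaks around MYC were in 2 places, the site near LINC00824 and the site in CYRIB, and the other 30 peaks had at most 34 tags.

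**Figure D3:**
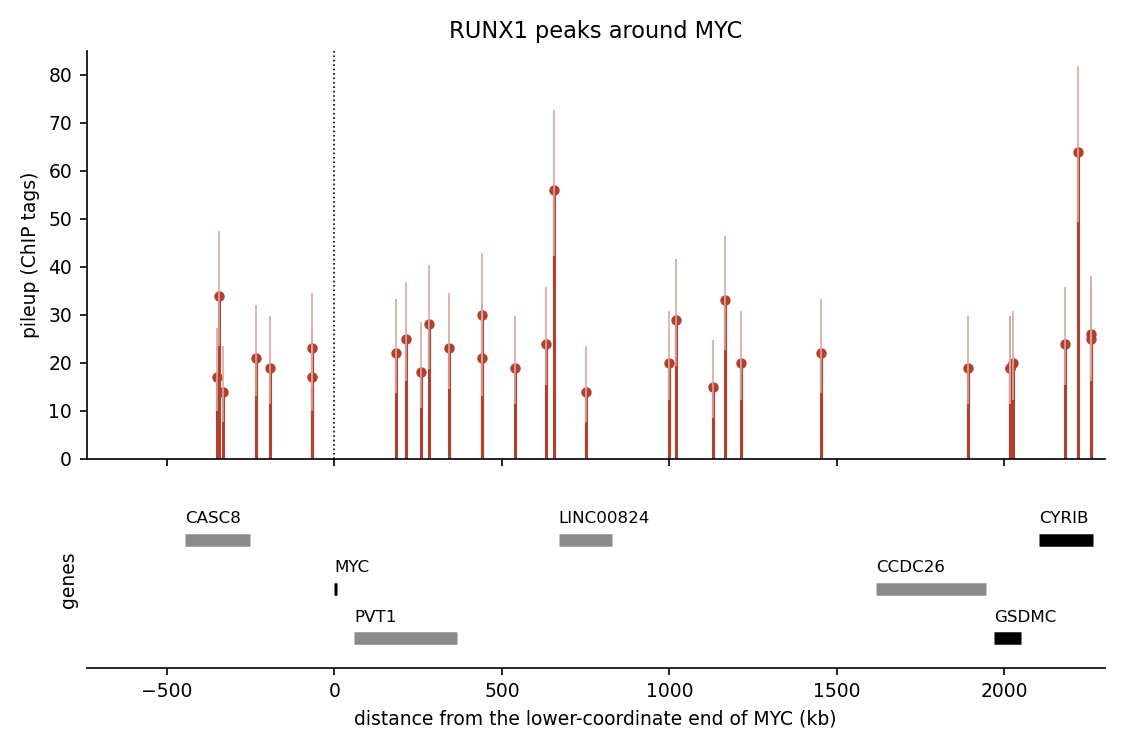
Pileup of the 32 peaks in the 3 Mb ending at 130 Mb, with exact 95% Poisson intervals as pale lines, against distance from the lower-coordinate end of MYC; black bars are protein-coding genes and grey bars non-coding genes. No peak stands in MYC, and the 2 tallest, of 56 and 64 tags, lie 656 kb away and in CYRIB.

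The 10 strongest members were ranked by −log10 q. After the CYRIB peak came one in RIMS2, a scaffold of the presynaptic release site, at 103980612 to 103981293. It had 63 tags (48.4 to 80.6) with the region's highest enrichment, 16.7-fold, and the greatest width, 682 bp. Next was a 635 bp peak in PSCA, a lipid-anchored surface protein of the LY6 family, at 142676892 to 142677526, with 64 tags and 16.1-fold enrichment. It was followed by a peak in ARHGAP39, a GTPase-activating protein, at 144675443 to 144675947, with 65 tags (50.2 to 82.8) and 14.5-fold enrichment. These 4 leading peaks were all inside protein-coding genes.

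Of the remaining 6, only 1 was inside a protein-coding gene. That was RSPO2, a secreted enhancer of Wnt signalling, at 108071271 to 108071541, with 57 tags (43.2 to 73.9) and 13.4-fold enrichment. The site near LINC00824 ranked before it. The others were a peak of 58 tags at 117669592 in the non-coding gene LOC105375721, 125 kb from EXT1, and one of 54 tags at 122434024 in the non-coding gene SMILR. The last were a peak of 50 tags at 133165797, 25.1 kb from CCN4, and one of 42 tags (30.3 to 56.8) at 141549324, 30.8 kb from C8orf90. Pileup intervals of the tenth and of the tallest peak overlap, and differences in height among these 10 were not tested. Their input levels were 1.11 to 1.67. In the whole list the strongest member ranked 30, and 8 members were among the first 100, while members made up 2.44% of all peaks. Wider cut-offs held smaller shares of members. They were 26 of the 734 peaks with a −log10 q of at least 20 and 106 of the 3332 with at least 10. Since −log10 q rises with the number of tags, these ranks are not separate from the taller pileups of distal 8q.

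A summit lay in or within 5 kb of 90 of the 222 protein-coding genes, or 40.5% (34.3 to 47.1%). Over all protein-coding genes of the genome the share was 24.8%, and on the rest of chromosome 8 it was 108 of 492, or 22.0% (18.5 to 25.8%). The share ranged from 34.1% in the bin from 100 to 110 Mb to 50% in that from 130 to 140 Mb. Non-coding genes followed the same order, with 62 of 272, or 22.8% (18.2 to 28.1%), against 13.3% on the rest of the chromosome and 14.8% in the genome. On chromosome 1 above 140 Mb and chromosome 5 above 120 Mb the protein-coding shares were 31.0% (28.2 to 34.0%) and 37.8% (33.5 to 42.2%). The non-coding shares there were 21.0% and 24.3%, so a raised share was not particular to distal 8q. Since there were also more peaks per Mb, these shares are not a separate finding from density. Of the 90 genes, 52 had 1 peak and 38 had 2 or more.

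The genes with most peaks were ASAP1 with 15, PLEC with 10, EXT1 with 7, and MTSS1 and SLC45A4 with 5 each. ASAP1 is a GTPase-activating protein for Arf that acts at focal adhesions and membranes. Its peaks were scattered over all of its 392 kb and none was very strong by enrichment, the range being 4.14 to 8.44. In order along the chromosome their pileups were 24, 26, 35, 21, 29, 27, 25, 22, 42, 20, 24, 20, 24, 32 and 51 tags. The last, at 130444755 to 130444969, lay 1.22 kb beyond the gene's higher-coordinate end and stood on an input level of 3.34, so its 51 tags gave 6.23-fold enrichment.

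PLEC encodes plectin, which ties keratin filaments to hemidesmosomes. It had 10 peaks in 61.6 kb, 8 of them in the largest cluster of the region, a cluster being 4 or more summits with each at most 12500 bp from the next. The pileups were 36, 23, 17, 17, 16, 25, 34, 28, 14 and 30 tags in order. The first, at 143928341 to 143928819, had the highest enrichment of the gene, 11.6-fold, and was the 1 member whose input level equalled the genome background. At its higher-coordinate end, which borders PARP10, the last peak had 30 tags and 8.97-fold enrichment and the one before it 14 tags and 3.21-fold.

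EXT1, a polymerase of heparan sulfate chains, had 7 peaks of 40, 24, 19, 29, 18, 31 and 16 tags. The first of these, at 117881464 to 117881949, was the strongest at 9.82-fold. MTSS1, a scaffold that bends membranes and binds actin, had 16, 23, 20, 26 and 38 tags, and SLC45A4, a membrane transporter, had 35, 18, 31, 19 and 23 tags. In SLC45A4 all 5 peaks fell within 11.9 kb. In ARHGAP39, which had 4 peaks, the one of 45 tags had an input level of 6.26, the highest of all members, and only a 3.11-fold enrichment, while the peak of 65 tags 11.5 kb away had an input level of 1.61.

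**Figure D4:**
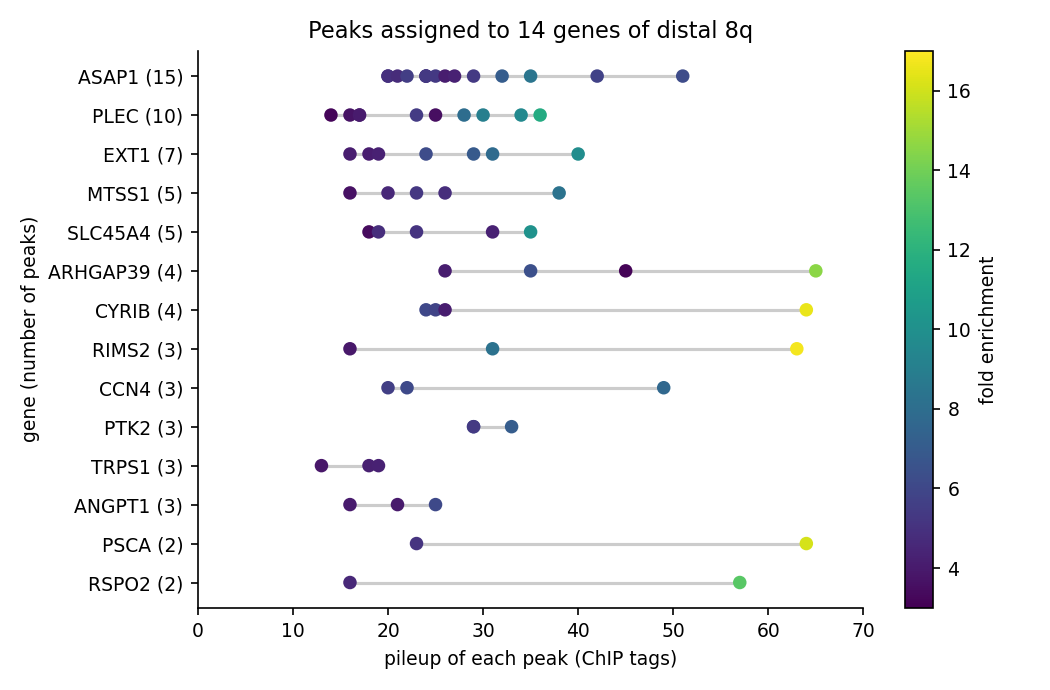
Pileup of every peak assigned to 14 genes of distal 8q (summit in the gene or within 5 kb), coloured by fold enrichment, with the number of peaks in parentheses. ASAP1 has the most peaks, 15, at 20 to 51 tags, whereas CYRIB, RIMS2, PSCA, RSPO2 and ARHGAP39 each have 1 peak of 57 to 65 tags well above their others in enrichment.

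Long genes differed widely in their counts. Of the 20 protein-coding genes of at least 250 kb, 14 had a peak, beside 90 of all 222. CSMD3, FAM135B, KCNQ3, COL22A1, SNTB1 and ADCY8 had 0, RIMS2 with 755 kb had 3 and TRAPPC9 with 731 kb had 1. Clusters were also found away from coding genes. One of 7 peaks with 15 to 36 tags lay from 100467923 to 100499629, around the non-coding gene LOC124901992. Another of 4 peaks at 141038486 to 141043649, near LOC124902030 and about 40 kb from PTK2, had 17, 34, 49 and 40 tags. In all, 48 members, or 14.5%, were in 10 such clusters, compared with 7.27% on the rest of chromosome 8 and 5.41% in the whole list, at their respective densities.

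Members lay mostly outside protein-coding genes. Inside one were 135 summits, or 40.8% (35.6 to 46.2%), against 42.7% on the rest of the chromosome and 47.3% over all peaks. A further 53, or 16.0%, lay only in a long non-coding gene, and 143, or 43.2% (38.0 to 48.6%), lay in neither. More than 100 kb from any protein-coding gene were 76 members, or 23.0% (18.8 to 27.8%), against 20.6% (16.7 to 25.2%) on the rest of chromosome 8 and 15.1% in the whole list. These intervals overlap on both sides of the boundary.

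Within 1 kb of an end of a protein-coding gene lay 23 summits, or 6.95% (4.67 to 10.2%), beside 3.78% (2.22 to 6.36%) on the rest of the chromosome and 7.33% in the whole list. The strongest of the 23, at 144359209 to 144359614, was in SLC52A2, a riboflavin transporter, next to FBXL6, with 42 tags and 11.1-fold enrichment. The following ones stood at the border of PLEC with PARP10 (30 tags), at ANKRD46 (32 tags) and at ST3GAL1, a sialyltransferase (34 tags). Others included RRM2B, a subunit of ribonucleotide reductase, with 22 tags, and the border of RECQL4, a DNA helicase, with LRRC14, with 20 tags. The gene table has no strand, so starts and ends of genes were not told apart.

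Gene lists under functional headings were compiled with results of these data known, and their counts are descriptive. The headings are loose and not every listed gene has the named function, so the shares do not describe those functions. The counts are to be read beside the 40.5% of all distal 8q protein-coding genes with a peak, whose median number of peaks was 0. Of 20 genes listed under transcription factors and signalling, 9, or 45%, had a peak, with a median of 0. GRHL2, a factor that maintains epithelial identity, had 1 peak of 23 tags (3.68-fold), and TRPS1, a repressor of the GATA family expressed in mammary epithelium, had 3 of 18, 13 and 19 tags. ZFPM2, a GATA cofactor, had 1 peak of 30 tags with 8.04-fold enrichment. PTK2, the focal adhesion kinase, had 3 of 29, 29 and 33 tags, of which 2 lay just beyond its higher-coordinate end. NDRG1, a stress-responsive protein, had 2 of 20 and 22 tags, both of them also within 5 kb of CCN4. FBXO32, RNF139 and ATAD2 had 1 each of 14, 22 and 17 tags, and MTSS1 is described above. Among the genes with 0 were KLF10, TRIB1, HSF1, MAFA, FOXH1, SCX, DEPTOR, SQLE, TATDN1 and RAD21. TRIB1, a pseudokinase, nevertheless had 4 peaks within 50 kb.

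Of 12 genes listed under matrix, secreted and related proteins, 8, or 66.7%, had a peak, with a median of 1.5 peaks, beside 40.5% and 0 over all. CCN4, a secreted matrix-associated protein, had the tallest in a gene of this list after RSPO2, 49 tags (36.3 to 64.8) at 133216452 to 133216859, on an input level of 2.50. ANGPT1, a ligand of the endothelial receptor TIE2, had 25, 16 and 21 tags. ENPP2, which makes lysophosphatidic acid, had 2 peaks, the better of 25 tags, and COL14A1, a collagen, had 1 of 31 tags. TG, the thyroid hormone precursor, had 3 of at most 21 tags, and SLA, whose gene lies inside TG, had 1 of 15. HAS2, COL22A1, CCN3 and TNFRSF11B had 0.

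Of 8 genes listed under translation, 4, or 50%, had a peak, with a median of 0.5, again beside 40.5%. AGO2, the slicing Argonaute protein, had 2, the better of 28 tags (7.39-fold), and YWHAZ, an adaptor that binds phosphorylated proteins, had 1 of 20 tags. RPL8, a protein of the large ribosomal subunit, and EEF1D, an elongation factor subunit, had 1 each of 14 and 17 tags, outside the genes. The first of these peaks lay inside the neighbouring gene ZNF34 and the second inside TIGD5. EIF3E, EIF3H, PABPC1 and BOP1 had 0. Apart from the better AGO2 peak, no peak of this list exceeded 20 tags.

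Among 14 LY6 and gasdermin family genes, 6, or 42.9%, had a peak, close to the 40.5% over all. PSCA had the peak of 64 tags described above and a second of 23 tags. LY6E had 1 of 30 tags (20.2 to 42.8), LY6D 2 of 17 and 20 tags, GML 1 of 23 tags and GSDMD 1 of 20 tags, besides the 3 of GSDMC. LY6K, LY6H, LY6L, LYPD2, SLURP1, SLURP2, LYNX1 and GPIHBP1 had 0. A summit lay within 50 kb of 12 of the 14 genes, beside 74.8% of all protein-coding genes of distal 8q. Of 10 genes listed under epithelial junctions and the cytoskeleton, a mixed list, 6, or 60%, had a peak, with a median of 1.5. Besides PLEC these were EPPK1, which encodes the plectin relative epiplakin, with 25 and 24 tags, MAL2, a protein of apical transport, with 2 of 18 tags, PARP10 with 2 shared with PLEC, NCALD with 2 and ADGRB1 with 1. SCRIB, a polarity protein, SHARPIN, RHPN1 and ARC had 0. Of 17 coding and non-coding genes around MYC, 8, or 47.1%, had a peak, with a median of 0. LRATD2 was among those without a peak, besides the ones named above. Over all lists, counted once per gene, 35 of 69 protein-coding genes, or 50.7%, and 5 of 10 long non-coding genes had a peak. The peaks of CASC21 and CCAT2 are also peaks of CASC8, and that of LINC02912 is also a PVT1 peak, so these 5 genes share peaks. The shares over all genes of distal 8q were 40.5% for protein-coding and 22.8% for long non-coding genes.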

How the data were processed

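Genomic binding was measured in 1 RUNX1 ChIPseq library and 1 input library of MCF10A cells, grouped by the antibody in their labels. The authors deposited a peak list made by MACS 2.1.2 at a q limit of 0.05. The submitters' processing notes name Bowtie2 and hg38. Per the file headers, tags of 54 bp were extended to 74 bp and at most 1 per position and strand was kept, which limits pileup to 148, a value no member reached. The deposited pileup is a signal in ChIP tags. The deposited fold enrichment is a ratio of pileup to local background, each plus 1. The deposited q-values are −log10 values.

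From these, the input level was computed as (pileup + 1) / fold enrichment − 1, divided by the genome background, which MACS applies as a minimum. Genes came from the RefSeq table of GRCh38.p14 (80 of 80 listed symbols matched, 1 by an older symbol, 1 below 100 Mb and left out). The region was taken to end with the last annotated gene, and a gene was counted by its midpoint. A peak was assigned to each gene within 5 kb of its summit, so neighbours can share peaks. Named genes were MYC and its neighbours, those at the 10 strongest peaks, the 5 with most peaks, and list genes. Other genes were named after their values were seen, and 1 listed gene is not reported here by name. Members and lists were chosen with earlier results of these data known. Intervals are exact Poisson for counts, Wilson for shares, exact conditional for ratios and binomial order-statistic for medians (scipy 1.17.1). Counting functions were tested on simulated data. The planned RUNX motif search at summits was not run and no sequence is shown, because a genome sequence was not used here.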

Additional observations from a re-analysis of the deposited data

How the results depend on the processing

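Of 38 alternatives over 7 results, 27 left a value inside its counting interval or a count within 1.5 times, and 11 moved it. None turned a ratio below 1. With the boundary 5 Mb lower or higher, a q limit of 0.01, fold enrichment of at least 5 or merging within 1 kb, the ratio of peak density ran from 1.92 to 2.18 and that of peaks per gene from 1.92 to 2.19. Limits chosen after seeing the data raised the density ratio from 2.14 to 3.33 (fold enrichment of at least 10), 3.61 (−log10 q of at least 20) and 4.58 (pileup of at least 30), and the cause was not tested. With fold enrichment of at least 5, which drops weaker peaks by construction, members fell from 331 to 161, peaks in the 3 Mb around MYC from 32 to 15 and genes with a peak from 40.5% to 22.5%, and the median pileup rose from 22 to 28 tags. Other changes follow from the distance counted. Genes with a peak were 32.0% for summits inside the gene and 74.8% within 50 kb, the MYC window with 1 Mb more on each side held 52 peaks, and 16.0% of summits lay within 5 kb of a gene end. No paired analysis was possible because neither library has a replicate. That also limits all errors here to counting error, which is wide for low peaks: 14 tags have an interval of 7.65 to 23.5.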
